A study of Arabidopsis thaliana with 12 samples.

Results

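The genes described here are 10 genes of aliphatic glucosinolate synthesis in Arabidopsis thaliana. They were chosen by gene identifier and are 3 transcription factors (MYB28, MYB29 and MYB76), 3 genes of methionine chain elongation (BCAT4, MAM1 and MAM3) and 4 genes that build the core structure (CYP79F1, CYP79F2, CYP83A1 and UGT74C1). All 10 were found among the 31837 gene records of the deposited table, and all 10 belonged to the 17649 records with a mean level of at least 1 FPKM (fragments per kilobase of transcript, scaled to library size) over the 4 genotypes. RNA was sequenced from seedlings of the Col-0 ecotype aged 14 days and grown under long days, in 12 libraries. Each of 4 genotypes had 3 libraries: unmutated Col-0 plants (WT), brm-1, which is mutated in BRM, brd1,2,13 with lesions in BRD1, BRD2 and BRD13, and brm-1 brd1,2,13, which joins them and is called the combined mutant here. BRM is the motor ATPase of one class of SWI/SNF chromatin remodellers, which hold BRD1, BRD2 or BRD13 as bromodomain subunits. The labels name no treatment, and say neither how the brd1,2,13 alleles were made nor how many plants were pooled in a library.

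The table gave 1 FPKM value per gene and genotype, so the spread between the 3 libraries is not known here, no test over samples was made, and the depth of the libraries is unknown. Every value below is therefore a description of 1 pooled value per genotype, and none of the differences was measured against replicate error. Ratios are log2 values with 0.1 FPKM added to both levels, and a gene is counted as past 1.5-fold when its log2 ratio is at least 0.58 in either direction. In whole seedlings, less of a cell type and less RNA per cell cannot be told apart.

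Glucosinolates are sulphur-rich glucosides of the cabbage order that release toxic products when myrosinase enzymes act on them in damaged tissue. The aliphatic class is made from methionine, whose side chain is first lengthened by cycles of transamination, condensation with acetyl-CoA, isomerisation and oxidative decarboxylation. The lengthened amino acid is then converted to an aldoxime, oxidised, joined to sulphur, glucosylated and sulphated, and the side chain may be modified afterwards. MYB28, MYB29 and MYB76 are related R2R3-type MYB factors that switch on many of these genes, and they act together with bHLH factors of the MYC group.

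CYP79F1 and CYP79F2 lie next to each other, as do MAM1 and MAM3, and both pairs are related copies, the CYP79F pair being the closer. Reads can be shared between copies where their sequences are identical. Stretches of their coding sequences from RefSeq are shown because they bear on how far the levels of each pair can be told apart. The 120 coding bases from position 601 of CYP79F1 and from position 598 of CYP79F2, counted from the first base of the start codon, differed at 9 bases, which are in capitals.
CYP79F1: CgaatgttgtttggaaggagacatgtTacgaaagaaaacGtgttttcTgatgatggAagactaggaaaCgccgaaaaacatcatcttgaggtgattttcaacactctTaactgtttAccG
CYP79F2: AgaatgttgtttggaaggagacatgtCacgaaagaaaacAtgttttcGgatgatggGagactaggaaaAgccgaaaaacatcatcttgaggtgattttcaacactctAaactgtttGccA
Over their aligned coding sequences the 2 genes were identical at 91.4% of bases, and the longest identical run was 100 bases. MAM1 and MAM3 were identical at 83.9%, with a longest identical run of 30 bases. The 120 coding bases from position 601 of MAM1 and from position 517 of MAM3 differed at 10 bases, again in capitals. This stretch holds that longest run and is more alike than the pair as a whole.
MAM1: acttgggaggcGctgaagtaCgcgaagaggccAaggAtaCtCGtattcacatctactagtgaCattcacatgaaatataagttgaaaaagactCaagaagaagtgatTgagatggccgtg
MAM3: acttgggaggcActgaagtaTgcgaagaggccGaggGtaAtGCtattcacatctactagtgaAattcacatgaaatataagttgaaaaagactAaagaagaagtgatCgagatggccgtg
The sources used here do not say how reads that fit both copies were divided, so the CYP79F1 and CYP79F2 levels in particular are uncertain.

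The sequences just before the CYP genes are shown because CYP79F2 and CYP83A1 were the only members with a match to either motif searched. The 250 bases before each gene's RefSeq start (TAIR10.1 assembly) were searched on both strands for the G-box CACGTG, a core bound by bHLH factors, and for AC elements, cores bound by R2R3-type MYB factors, in the form ACCTACC, the form ACCAACC or the form ACCTAAC. The motifs do not overlap in these windows. Capitals mark the matches in the windows of CYP79F2 (chr1:5604794-5605043, plus strand), its neighbour CYP79F1 (chr1:5608432-5608681, plus strand) and CYP83A1 (chr4:7992430-7992679, minus strand), each written towards the gene.
CYP79F2: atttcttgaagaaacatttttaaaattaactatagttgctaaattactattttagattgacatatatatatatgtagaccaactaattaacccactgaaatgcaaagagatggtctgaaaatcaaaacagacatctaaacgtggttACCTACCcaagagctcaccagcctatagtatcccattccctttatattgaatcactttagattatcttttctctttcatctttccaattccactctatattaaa
CYP79F1: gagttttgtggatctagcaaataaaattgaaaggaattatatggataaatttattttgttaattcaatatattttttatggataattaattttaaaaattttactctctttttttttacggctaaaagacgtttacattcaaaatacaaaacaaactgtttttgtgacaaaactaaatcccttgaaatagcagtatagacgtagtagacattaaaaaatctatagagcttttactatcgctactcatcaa
CYP83A1: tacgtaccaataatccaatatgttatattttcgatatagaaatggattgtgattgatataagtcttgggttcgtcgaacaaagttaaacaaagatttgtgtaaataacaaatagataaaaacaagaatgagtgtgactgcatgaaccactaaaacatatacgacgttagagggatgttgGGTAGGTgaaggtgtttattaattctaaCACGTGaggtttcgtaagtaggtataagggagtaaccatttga
CYP79F2 held ACCTACC with its first base 104 bases before the start. CYP83A1 held the same letters on the opposite strand, printed as GGTAGGT, 71 bases before the start, and a G-box 43 bases before it. Neither motif was found in the windows of the other 8 members, which says only that these letters are not in those 250 bases. The RefSeq start of every member differed from the start of its deposited gene record, so the distances given here hold for RefSeq only. The window of MYB28 and part of that of UGT74C1 lay inside the deposited gene record. Among the windows of 27443 genes, 6.49% held a G-box, 6.12% any of the 3 AC elements and 1.16% ACCTACC.

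The mutated genes were read first as a check of the labels. BRM had 17.5 FPKM in WT, 0.0954 in brm-1, 18.5 in brd1,2,13 and 0.12 in the combined mutant. BRD13 had 14.4, 18.7, 0.223 and 0.0194 FPKM in the same order. BRD1 had 12.7, 15.7, 4.36 and 4.76 FPKM, and BRD2 7.04, 22.5, 3.05 and 3.08 FPKM, so transcript of both was still counted in the brd1,2,13 genotypes. The 4 shoot markers (RBCS1A, LHCB1.3, PSBO1 and GAPA1, genes of photosynthesis) summed to between 33197 and 35407 FPKM in the 4 genotypes. The 5 root markers (CASP1 and CASP2 of the endodermis, and EXPA7, PRP3 and COBL9 of root hairs) summed to 78.2 FPKM in WT, 50.1 in brm-1, 49.9 in brd1,2,13 and 42.1 in the combined mutant. All 5 were below WT in each mutant and none was at 0.

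The combined mutant had the lowest level of the 4 genotypes for 8 of the 10 glucosinolate genes, the exceptions being MYB76 and MAM1. Across the 17649 records, 29.0% were lowest in this genotype. The median log2 ratio of the members to WT was -0.37 in brm-1, 0.16 in brd1,2,13 and -0.56 in the combined mutant, where the median over all records was -0.00, 0.01 and 0.01. In brd1,2,13, 5 members stood at their highest level of the 4 genotypes (MYB28, MYB29, CYP79F1, CYP79F2 and CYP83A1), as did 22.4% of records. Summed over the 10 genes, the level was 811 FPKM in WT, 763 in brm-1, 893 in brd1,2,13 and 690 in the combined mutant.

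**Figure D1:**
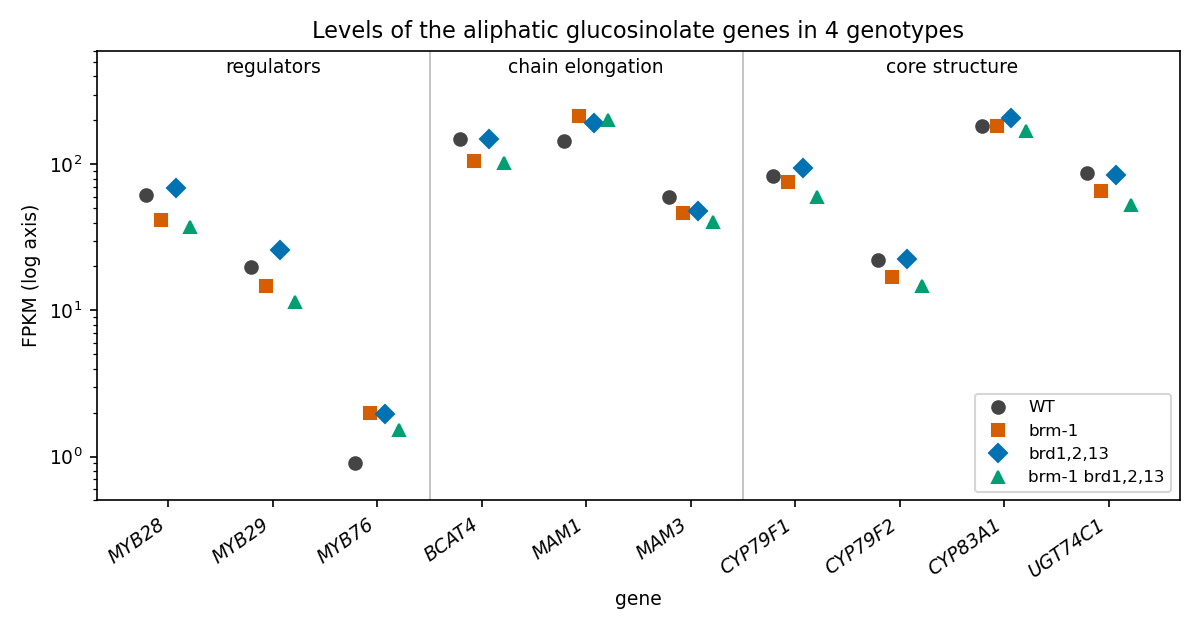
FPKM of the 10 genes on a log axis, 1 deposited value per genotype with no error available, grouped by role. The combined mutant (triangles) is the lowest point for 8 genes, WT (circles) is the lowest for MYB76 and MAM1.

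Few single genes were past 1.5-fold. In brm-1, MYB76 alone was past it on the higher side (12.3% of records were) and no member was on the lower side (11.1% of records). In brd1,2,13, MYB76 was again the only member past it on the higher side (6.54% of records), with none on the lower side (3.71%). The combined mutant had 3 members past 1.5-fold on the lower side of WT (MYB28, MYB29 and UGT74C1, against 13.2% of records) and MYB76 on the higher side (14.7%). MYB76, at 0.900 FPKM in WT, reached the mean of 1 FPKM only through the mutants, where it was higher. Its calls on the higher side are therefore not independent of that cut. In the combined mutant the lower count was 5 after centring on the median record, 6 after upper-quartile scaling and 0 at 2-fold. The higher count there was 0 with 1 FPKM added or at 2-fold. The share of records was not computed at these settings, so these counts have no background beside them. Leaving size aside, 8 of 10 members were below WT in the combined mutant, against 48.9% of records. The comparisons with WT share the WT value.

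MYB28 (AT5G61420, chr5:24689151-24691442 in TAIR10) is the main regulator of the aliphatic pathway and had by far the highest level of the 3 regulators. It had 61.9 FPKM in WT, 41.6 in brm-1, 68.9 in brd1,2,13 and 37.4 in the combined mutant. The pair with the brm-1 lesion was thus low and the pair without it high. Its log2 ratios to WT were -0.57, 0.15 and -0.73. The brm-1 value lay just inside the 1.5-fold line.

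MYB29 (AT5G07690, chr5:2446759-2448547), which acts partly in place of MYB28 and is known for its response to jasmonate, showed the same order with a wider span. Its levels were 19.8 FPKM in WT, 14.6 in brm-1, 25.9 in brd1,2,13 and 11.4 in the combined mutant. The log2 ratio of the combined mutant to brd1,2,13 was -1.18, the widest among the members. The 3 ratios to WT were -0.44, 0.39 and -0.79.

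MYB76 (AT5G07700, chr5:2450051-2451763), the neighbour of MYB29 and the regulator of the 3 with the smallest known part, was scarce. It had 0.900 FPKM in WT, 1.98 in brm-1, 1.96 in brd1,2,13 and 1.53 in the combined mutant. Only 2.01% of the records lay below it in WT. All 3 mutants were above WT, with log2 ratios of 1.06, 1.04 and 0.71, and with 1 FPKM added in place of 0.1 these were 0.65, 0.64 and 0.41. The level of MYB29 was 22.0 times that of MYB76 in WT, 7.38 times in brm-1, 13.2 times in brd1,2,13 and 7.44 times where both lesions were joined, although only 1503 bases separate their records. The 3 regulators together summed to 82.6, 58.2, 96.8 and 50.3 FPKM.

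BCAT4 (AT3G19710, chr3:6843662-6849497) encodes the aminotransferase that takes methionine into chain elongation. Its levels were 149 FPKM in WT, 106 in brm-1, 148 in brd1,2,13 and 102 in the combined mutant. The brm-1 genotypes were thus near each other and the other 2 near each other, and the log2 ratio of the combined mutant to brm-1 was -0.05. The BCAT4 record overlaps that of AT3G19700, so its level is uncertain.

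MAM1 and MAM3 encode methylthioalkylmalate synthases, which carry out the condensation step, and MAM3 also serves the longest chains. MAM1 (AT5G23010, chr5:7703092-7706896) was, like MYB76, higher than WT in every mutant. It had 144 FPKM in WT, 213 in brm-1, 192 in brd1,2,13 and 202 in the combined mutant. The log2 ratios to WT were 0.57, 0.42 and 0.49, each short of 1.5-fold.

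MAM3 (AT5G23020, chr5:7718121-7721839) had 60.1 FPKM in WT, 46.6 in brm-1, 47.8 in brd1,2,13 and 40.2 in the combined mutant. All 3 mutants were lower than WT, with log2 ratios of -0.37, -0.33 and -0.58. The MAM1 level was 2.39 times the MAM3 level in WT and 4.57, 4.01 and 5.02 times in the mutants, in the order brm-1, brd1,2,13, combined. The 2 records lie 11224 bases apart. The summed level of the chain elongation members lay between 344 and 388 FPKM in the 4 genotypes.

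CYP79F1 and CYP79F2 encode the cytochromes P450 that turn chain-elongated methionine into aldoximes, CYP79F1 for short and long chains and CYP79F2 for long chains. CYP79F1 (AT1G16410, chr1:5608807-5611426) had 83.9 FPKM in WT, 75.9 in brm-1, 94.2 in brd1,2,13 and 59.8 in the combined mutant. CYP79F2 (AT1G16400, chr1:5605159-5607473) had 22.0, 17.0, 22.4 and 14.8 FPKM. Both were lowest in the combined mutant, with log2 ratios to WT of -0.49 and -0.57. In brm-1 the ratios were -0.14 and -0.37, and in brd1,2,13 they were 0.17 and 0.02. Their level ratio varied little, with CYP79F1 at 3.81, 4.46, 4.21 and 4.05 times CYP79F2.

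CYP83A1 (AT4G13770, chr4:7990485-7992311) encodes the P450 that oxidises the aldoximes. It had the highest level of any member in WT, with 183 FPKM, and 182 in brm-1, 207 in brd1,2,13 and 169 in the combined mutant. Its span over the genotypes was narrow, and its log2 ratios to WT were -0.01, 0.18 and -0.11. UGT74C1 (AT2G31790, chr2:13518056-13523900) encodes a glucosyltransferase assigned to aliphatic glucosinolates. It had 87.1 FPKM in WT, 65.3 in brm-1, 84.3 in brd1,2,13 and 52.8 in the combined mutant. Its log2 ratios to WT were -0.42, -0.05 and -0.72. Its record overlaps that of AT2G31800, so its level is uncertain. The core structure members summed to 376, 340, 408 and 296 FPKM.

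**Figure D2:**
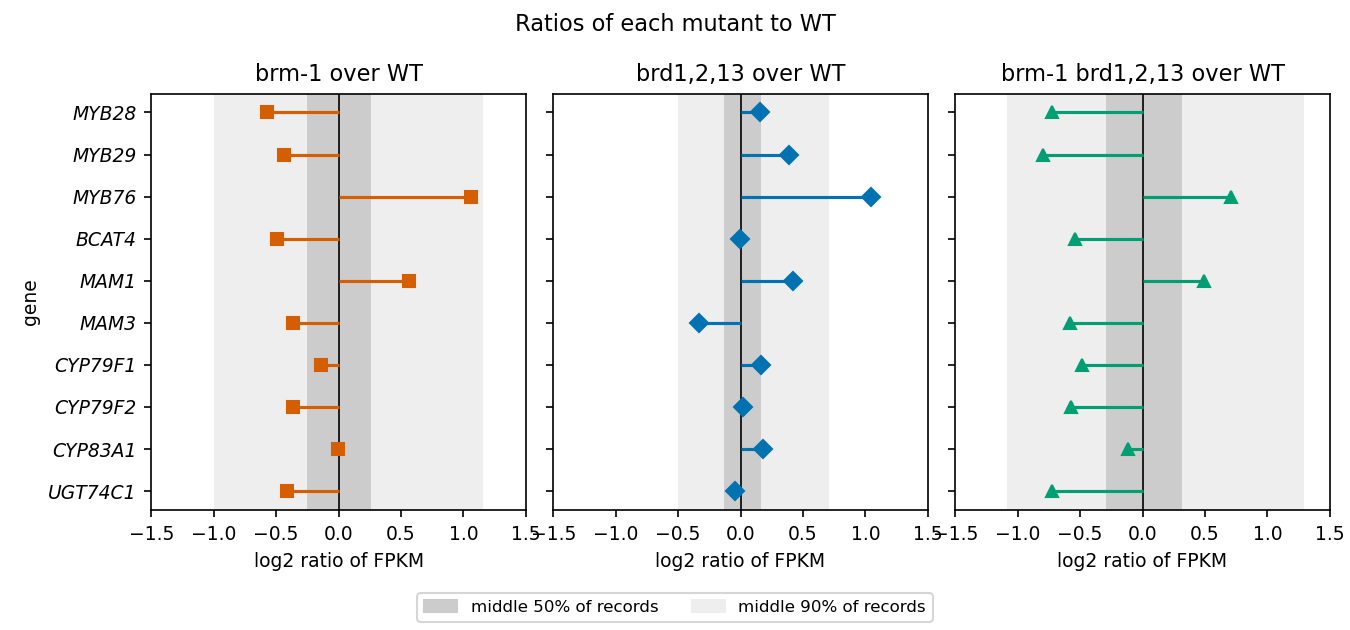
Log2 ratios of the 10 genes to WT in brm-1, brd1,2,13 and the combined mutant, with dark and light bands for the middle 50% and 90% of the 17649 records. MYB76 and MAM1 lie to the right in all 3 panels, and in the combined mutant 8 genes lie to the left.

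The next comparison asked whether the loss of the 3 BRD genes went with the same differences when BRM was present (brd1,2,13 against WT) and when it was mutated (the combined mutant against brm-1). The 2 comparisons share no genotype. With BRM present, 7 of 10 members were higher in brd1,2,13, against 51.6% of records, although CYP79F2, at 0.02 on the log2 scale, was among these 7 and came to -0.00 after upper-quartile scaling. In the brm-1 background 10 of 10 were lower, against 49.0% of records. No member was past 1.5-fold there on either side, which 2.19% of records were on the higher and 1.81% on the lower side. The ratios ran from -0.36 for MYB29 to -0.05 for BCAT4. In this comparison 5 of 5 root markers and 4 of 4 shoot markers were lower too. In the lists described below, 17 of 19 other pathway genes, 5 of 5 breakdown genes and 6 of 7 indole genes were lower. So were 5 of 8 genes for partner factors, sulphate donors, transport and the sulphur response. The 7 genes that were higher in the first comparison and lower in the second were MYB28, MYB29, MYB76, MAM1, CYP79F1, CYP79F2 and CYP83A1. Over all records, 22.4% had this pair of directions.

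The difference between these effects, the log2 ratio of the combined mutant to brm-1 minus that of brd1,2,13 to WT, was below 0 for 9 of 10 members, and for 50.6% of records. Its median was -0.30 over the members and -0.00 over the records. The members ran from -1.40 for MYB76 and -0.75 for MYB29 to -0.04 for BCAT4, and only MAM3 was above 0, at 0.12. The middle 90% of the records ran from -0.76 to 0.62, so of the members only MYB76 lay outside it. For MYB76 the value was -0.88 with 1 FPKM added.

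**Figure D3:**
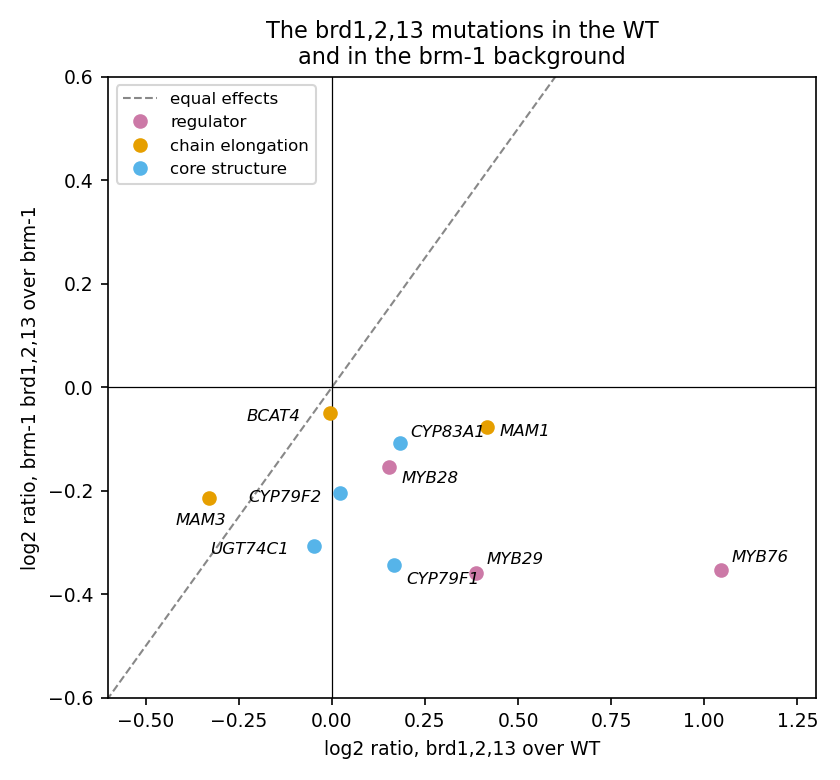
Log2 ratio of brd1,2,13 to WT (horizontal) against that of the combined mutant to brm-1 (vertical) for the 10 genes, coloured by role, with a dashed line where both are equal. All 10 points lie below the horizontal zero line, and 9 lie below the dashed line, MAM3 being the exception.

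Set against brd1,2,13, the combined mutant differed by the brm-1 lesion alone as far as the labels say. There, 5 members were past 1.5-fold on the lower side, among 11.5% of records, and none on the higher side, among 10.2%. The 5 were MYB28 at -0.88, MYB29 at -1.18, CYP79F1 at -0.65, CYP79F2 at -0.60 and UGT74C1 at -0.68 on the log2 scale. BCAT4, at -0.54, was just short of that line. With 1 FPKM added, CYP79F2 was at -0.57 and 4 members were past it, a setting at which the share of records was not computed. The same lesion in the WT background gave -0.57, -0.44, -0.14, -0.37 and -0.42 for those 5 genes in that order.

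The other enzymes of the aliphatic pathway comprised 20 genes, of which 19 had a mean of at least 1 FPKM. AOP3 was at or near 0 in every genotype. In brm-1 only AOP2 was past 1.5-fold, on the lower side (11.1% of records were), and none was on the higher side (12.3% of records). AOP2 forms alkenyl side chains in other accessions and is not functional in Col-0. It had 14.2 FPKM in WT, 5.68 in brm-1, 12.2 in brd1,2,13 and 4.11 in the combined mutant, with log2 ratios to WT of -1.31, -0.22 and -1.77.

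In brd1,2,13 none of the 19 was past 1.5-fold on the lower side (3.71% of records were) and 2 were on the higher side (6.54%). Both encode flavin monooxygenases that oxidise the sulphur of the side chain. FMO GS-OX4 had 18.8 FPKM in WT, 24.9 in brm-1, 44.9 in brd1,2,13 and 16.4 in the combined mutant. FMO GS-OX2 had 11.0, 9.71, 21.0 and 8.97 FPKM in the same order. In both genes the brd1,2,13 value stood above those of the other genotypes, while the combined mutant was the lowest. In the combined mutant 2 genes were past 1.5-fold on the lower side of WT (13.2% of records were), AOP2 and FMO GS-OX3, the latter at -0.61. None was on the higher side (14.7% of records).

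None of the 6 chain elongation and 7 core genes outside the 10 members was past 1.5-fold of WT in any mutant. BASS5, the plastid transporter of the chain elongation intermediates, had log2 ratios of 0.45, 0.54 and 0.22. GSTF11, a glutathione transferase, had 0.11, 0.32 and -0.46. Set against brm-1, 17 of the 19 were lower in the combined mutant, against 49.0% of records. After upper-quartile scaling 18 were lower, a setting at which the share of records was not computed. The median of the 19 against brm-1 was -0.23. Of these, 1 was past 1.5-fold on the lower side, FMO GS-OX4, against 1.81% of records.

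**Figure D4:**
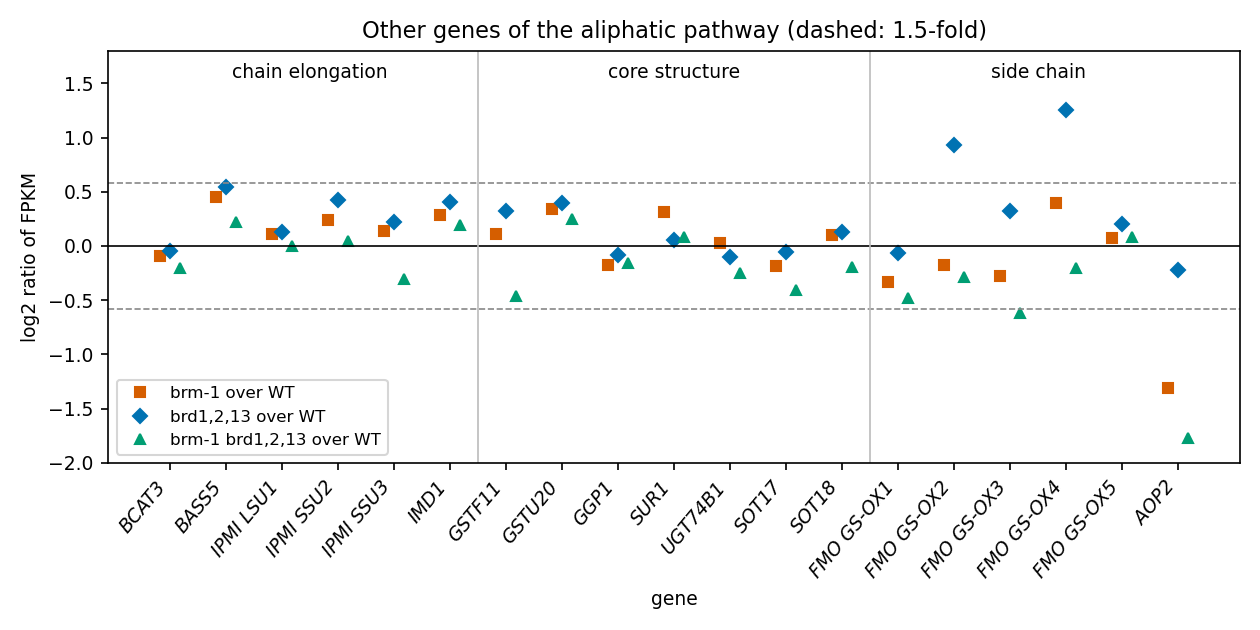
Log2 ratios to WT of 19 other genes of the aliphatic pathway, 1 point per mutant, in 3 blocks by step, with dashed lines at 1.5-fold. AOP2 is low in both genotypes with the brm-1 lesion, and FMO GS-OX2 and FMO GS-OX4 are past the upper dashed line in brd1,2,13 alone.

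The list for partner factors, sulphate donors, transport and the sulphur response held 8 genes. None was past 1.5-fold in brd1,2,13, where 6.54% of records were higher and 3.71% lower. In brm-1, 1 was on the higher side (12.3% of records were) and 1 on the lower side (11.1%). In the combined mutant, 1 was on the higher side (14.7% of records) and 2 on the lower side (13.2%). These were MYC2, MYC4 and, in the combined mutant, APK2. MYC2, the bHLH factor of jasmonate signalling, had 13.1 FPKM in WT, 49.3 in brm-1, 15.0 in brd1,2,13 and 29.8 in the combined mutant. MYC4, a related partner of the MYB factors, had 14.2, 6.89, 12.7 and 7.56 FPKM. The 2 genes thus stood on opposite sides of WT in the brm-1 genotypes. MYC3 lay between 24.6 and 27.5 FPKM. APK2, a kinase that makes the sulphate donor, had a log2 ratio of -0.66 in the combined mutant.

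Among 5 breakdown genes, the myrosinases TGG1 and TGG2 lay within 1.5-fold of WT. ESM1, a modifier that favours isothiocyanates, had 700 FPKM in WT, 371 in brm-1, 430 in brd1,2,13 and 321 in the combined mutant. ESP, which diverts breakdown to nitriles, had 3.57, 1.63, 4.35 and 1.14 FPKM. All 5 genes were lower in the combined mutant than in WT, as were 48.9% of records, with a median log2 ratio of -0.30. Of these, 2 were past 1.5-fold on the lower side, ESM1 and ESP, against 13.2% of records.

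The indole class, made from tryptophan, comprised 8 genes, of which 7 had a mean of at least 1 FPKM, all but MYB122. Those 7 were all below WT in brd1,2,13, as were 48.4% of records. Their median log2 ratio was -0.35, where the aliphatic members had 0.16. MYB122 went the other way, with 0.431 FPKM in WT and 0.794 in brd1,2,13, a log2 ratio of 0.75. MYB34, a regulator of the indole class, had 37.8 FPKM in WT, 18.6 in brm-1, 31.3 in brd1,2,13 and 14.5 in the combined mutant. MYB51, another, had 9.12, 16.1, 7.75 and 17.4 FPKM. In the combined mutant 2 of the 7 were past 1.5-fold on the higher side of WT (MYB51 and CYP81F2, against 14.7% of records). On the lower side were 2 (MYB34 and CYP79B2, against 13.2% of records). The records of CYP81F2 and CYP79B2 each join several genes. In brd1,2,13, 2 of the 7 were past 1.5-fold on the lower side (3.71% of records were) and 0 on the higher side (6.54%). These were CYP79B3, which makes the indole aldoxime, at -0.73 and CYP79B2 at -0.59.

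Root markers were also low in the mutants, and their part in these results was not tested. Their median log2 ratio to WT was -0.61 in brm-1, -0.72 in brd1,2,13 and -0.82 in the combined mutant, where that of the 4 shoot markers was -0.03, 0.02 and -0.11.

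MYB29 had the widest span of level among the members, and its pattern was compared with every record of 1 gene by the largest absolute distance between the 3 log2 ratios to WT. The closest were DOGT1 (AT2G36800, a glucosyltransferase) at 0.04, WAKL7 (AT1G16090, a wall-associated kinase-like gene) at 0.04, ROXY2 (AT5G14070, a glutaredoxin) at 0.06, HHP4 (AT4G37680) at 0.10 and AT5G57610 at 0.10. The likeness rests on 3 ratios that share WT.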

How the data were processed

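RNA from 12 seedling libraries was analysed, 3 in each of 4 genotypes named by the sample titles. Per the submitters' processing notes, the authors used TopHat (version not given), Cuffdiff 2.1.1 and Cufflinks 2.1.1, with TAIR10 as genome build. The deposited table had 191022 rows for 31837 gene records in 6 pairs of genotypes, and its levels are FPKM computed by the authors as 1 value per genotype. No source used here says whether strand was used. The authors' own comparisons (fold changes, a test statistic, p and q values) were not used.

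Ratios were computed with Python 3.11.15, pandas 2.3.3 and numpy 2.4.6 as log2 with a pseudocount of 0.1 FPKM, which understates differences of low genes. Records with a mean of at least 1 FPKM over the 4 genotypes gave the background shares. Members and gene lists were chosen with earlier results of these data known. The genes named are the 10 members, list genes past 1.5-fold in a comparison with WT, and the 5 records most like the member with the widest span. BASS5, GSTF11, MYC3, TGG1, TGG2, AOP3 and MYB122, which were not past 1.5-fold or had a mean under 1 FPKM, were named after their values were seen. Table starts had 1 added. Sequences and symbols came from the RefSeq annotation of TAIR10.1, and coding sequences were aligned with Biopython 1.88. The ratio code was tested on simulated data. Other pseudocounts, scalings, thresholds and filters were tried.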

Additional observations from a re-analysis of the deposited data

Results flagged for a closer look

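For MYB29 and MYB76 the brd1,2,13 lesions stood beside opposite differences in the WT and brm-1 backgrounds, at least 0.58 apart in log2. Of the members, 7 were higher in brd1,2,13 than WT and lower in the combined mutant than in brm-1, as were 22.4% of records. MYB29 and MYB76 were flagged by the size of the difference, and the share of records past that cut was not computed. For MYB29 the log2 ratio was 0.39 with BRM present and -0.36 in brm-1, a difference of -0.75 (levels of 19.8, 25.9, 14.6 and 11.4 FPKM in WT, brd1,2,13, brm-1 and the combined mutant). For MYB76 it was 1.04 and -0.35, a difference of -1.40, at levels of 0.900, 1.96, 1.98 and 1.53 FPKM in the same order. With 1 value per genotype, neither difference was tested.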

How the results depend on the processing

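Of the members' values, CYP79F2 in brd1,2,13 alone changed sign, from 0.02 to -0.00 on the log2 scale under upper-quartile scaling. Other pseudocounts, scalings and thresholds were run for the members, and other filters for the shares of records. For the other lists, both scalings were run on 1 count, that of other pathway genes lower in the combined mutant than in brm-1. With 1 FPKM added, 54 of 60 single-gene values moved by less than 0.1 and the 6 that moved more were all of MYB76. At that setting 0 members were past 1.5-fold on the higher side of WT in the combined mutant. On the lower side of brd1,2,13, 4 were past it in the combined mutant, as CYP79F2 fell short. With 0.01 FPKM added, and with both scalings, all 60 moved by less than 0.1. Several genes lie near the 1.5-fold line, so the counts depend on it. After centring on the median record, 5 members were past it on the lower side in the combined mutant, and after upper-quartile scaling 6 were, with 1 in brm-1. At 2-fold, 0 members were lower and 0 higher than WT in the combined mutant, and 1 was lower than in brd1,2,13. At a lower threshold, a log2 ratio of 0.32, 6 were lower and 2 higher in brm-1, and 1 lower and 3 higher in brd1,2,13. In the combined mutant 7 were lower and 2 higher than WT, and 3 were lower than in brm-1. The share of records was not computed at these other pseudocounts, scalings and thresholds, so these counts have no background beside them. In brm-1 against WT, the middle 50% of records ran from -0.26 to 0.27. The share of records past 1.5-fold in either direction between the combined mutant and brm-1 was 4.0%, with 1.96% at a mean of at least 5 FPKM and 6.21% without a filter. No paired analysis was possible because the table gave 1 value per genotype, and for the same reason no library could be left out and no error or depth can be given.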
